A study of Homo sapiens with 15 samples.

Results

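The report concerns miR-335, a microRNA made from an intron of the imprinted gene MEST, through the 2 mature strands of its hairpin, hsa-miR-335-5p and hsa-miR-335-3p, which are 2 of the 1707 mature miRNAs listed in the files. The pair was chosen by a measured value of the same libraries, the lower level of the 3p strand in the double knockout than in hypoxic control cells in an earlier analysis, so the comparison of those 2 groups is given as a description without a test.

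Small RNA was sequenced from U87-MG, an established human glioblastoma cell line, in 15 libraries that fall into 5 groups of 3. The control groups carried the genotype WT and were kept for 24 h in 21% O2 (normoxia) or in 1% O2 (hypoxia). The other groups were kept for 24 h in 1% O2. Their genotypes were Hif1a knock-out, called HIF1α-KO here, Hif2a knock-out, called HIF2α-KO, and Hif1a Hif2a knock-out, called HIF1α/HIF2α-KO or the double knockout. They were made with CRISPR/Cas9 guides delivered by lentivirus. Whether a knockout line is 1 clone or a pool, and whether replicates are separate cultures, is not given in the sources used here, so the p-values measure only the spread between these libraries. The knocked-out mRNAs, HIF1A and EPAS1, are not part of a miRNA library, and the knockouts were not checked here.

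HIF1α and HIF2α are the oxygen-regulated subunits of the transcription factor that switches on genes in low oxygen. A miRNA hairpin is cut out of a longer transcript and leaves a duplex, of which 1 strand usually enters an Argonaute protein and guides it to mRNAs that pair with the seed, bases 2 to 8 of the strand, while the other strand is usually degraded. MEST is expressed mainly from the paternal allele. The miRNA miR-335 is best known from breast cancer, where it was described as a suppressor of metastasis that represses SOX4 and tenascin C.

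Both strands and the hairpin are shown because the results turn on which strand was counted. In the strands the capitals mark the seed, and in the hairpin they mark the 5p strand and then the 3p strand. The sequences are those of RefSeq for GRCh38.p14 and lie on the plus strand of chromosome 7.
hsa-miR-335-5p: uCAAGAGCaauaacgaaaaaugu
hsa-miR-335-3p: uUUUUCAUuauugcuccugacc
MIR335 hairpin: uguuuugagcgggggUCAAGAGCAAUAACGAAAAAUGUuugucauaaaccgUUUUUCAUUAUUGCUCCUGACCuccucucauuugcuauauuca

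The 5p strand spans chr7:130496126-130496148 and has 23 bases, and the 3p strand spans chr7:130496162-130496183 and has 22 bases. The 2 strands are separated by 13 bases of the hairpin, which spans chr7:130496111-130496204 and has 94 bases. In the fold computed with RNAfold, with a free energy of -40.2 kcal/mol, the strands shared 18 base pairs, of which 13 were A-U and 5 were G-C. The 3p seed is a run of U with a single C and a single A. No other row of the files shared bases 2 to 8, or bases 2 to 7, with either strand, among the 1545 rows with a RefSeq sequence. In the GENCODE release 29 annotation the hairpin lies in an intron in each of the 13 MEST transcripts that span it, out of 17 MEST transcripts, and in an exon of 0 of them. MEST spans chr7:130486171-130506465 on the plus strand, and the antisense gene MESTIT1 and the gene COPG2 overlap its ends from the minus strand.

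The libraries held between 10360337 and 22496373 counts, and levels are given as CPM, the counts of a miRNA scaled to the total of its library. A floor of 3 counts equals 0.133 to 0.290 CPM in these libraries, and floors and count intervals cover counting error only. The 2 endothelial markers, both strands of miR-126, summed to 14.5 to 51.9 CPM in 9 libraries and to 3.90 to 6.95 CPM in the other 6. Every normoxic control library was in the set with more miR-126, whereas each hypoxic group was divided between the sets. Values are also given within these sets. Of 5 glial and neural markers 4 were in the files and 2 had counts in every library. The 2 glioma markers, miR-21-5p and miR-10b-5p, were far above the markers of the other cell types in every library.

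The 3p strand was the abundant one, with 24650 counts over the 15 libraries, against 1561 counts of the 5p strand. By mean level miR-335-3p held rank 118 and miR-335-5p rank 275 of the 1707 miRNAs. Over all libraries there were 15.8 counts of 3p for each count of 5p. Of the 142 hairpins with both strands among the 562 miRNAs tested, 74 had more 3p than 5p counts, and 29 hairpins other than miR-335 had at least as many 3p counts per 5p count. Sequencing adapters join different RNA ends with different efficiency, so the ratio of reads within 1 library is not the ratio of molecules.

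miR-335-3p was lowest in HIF1α/HIF2α-KO cells and highest in hypoxic control cells. In hypoxic control cells it measured 113, 205 and 197 CPM (172 ± 51.0, SD, n = 3). The HIF1α/HIF2α-KO libraries measured 66.2, 58.2 and 47.1 CPM (57.1 ± 9.60, SD, n = 3). Each hypoxic control library lay above each double knockout library, and the ratio of the group means was 3.00. The pair was chosen by this difference, and how many other miRNAs separated in the same way was not counted. Nothing is therefore read from the separation. Of the 562 miRNAs tested, 137 had an unadjusted p under 0.05 between these groups (edgeR). In bulk RNA, fewer cells that express a miRNA and less of it in each cell cannot be told apart.

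The other groups lay between these values, with 1 library as an exception. HIF1α-KO cells gave 194, 112 and 39.4 CPM of miR-335-3p (115 ± 77.4, SD, n = 3). HIF2α-KO cells gave 85.7, 84.0 and 178 CPM (116 ± 53.8, SD, n = 3). Normoxic control cells gave 91.8, 88.8 and 144 CPM (108 ± 30.9, SD, n = 3). HIF1α-KO replicate 3, at 39.4 CPM and 408 counts, was the lowest library of all and the only one outside the double knockout that lay among or under its values. In order of the means the groups ran from hypoxic control through HIF2α-KO, HIF1α-KO and normoxic control to HIF1α/HIF2α-KO. Each neighbouring pair in this order overlapped except the last, normoxic control and HIF1α/HIF2α-KO. Such gaps were not counted for other miRNAs, and nothing is read from this one.

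**Figure D1:**
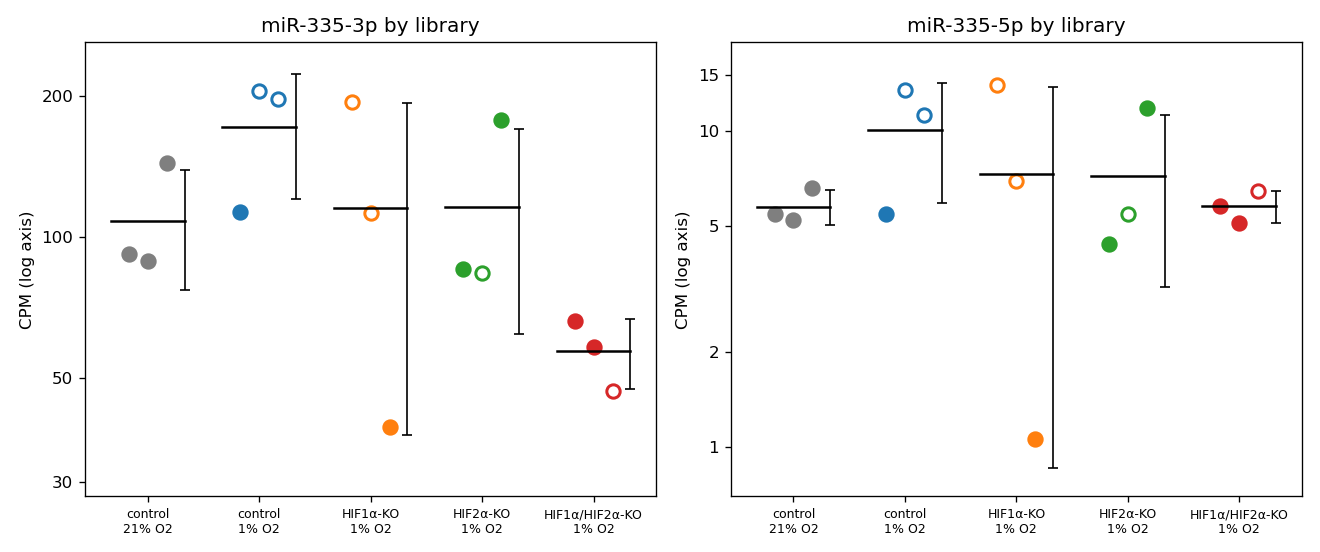
Level of each strand in CPM, on log axes, for the 3 libraries of each group. Filled points are the 9 libraries with more miR-126 and open points the 6 with less, horizontal lines are group means and the bars beside them ± 1 SD. The 3p strand sits lowest in HIF1α/HIF2α-KO cells apart from HIF1α-KO replicate 3 at 39.4 CPM, and the 5p strand of HIF1α/HIF2α-KO cells overlaps that of every other group.

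The minor strand did not follow the same order. miR-335-5p measured 5.46, 13.5 and 11.2 CPM in hypoxic control cells (10.0 ± 4.12, SD, n = 3). The HIF1α/HIF2α-KO libraries measured 5.79, 5.10 and 6.43 CPM (5.77 ± 0.665, SD, n = 3), so that 1 hypoxic control library lay within the range of the double knockout. Normoxic control cells had almost the same mean, with 5.45, 5.22 and 6.58 CPM (5.75 ± 0.728, SD, n = 3). HIF2α-KO cells gave 4.38, 5.46 and 11.8 CPM (7.20 ± 3.99, SD, n = 3), again with replicate 3 as the high library of both strands. HIF1α-KO cells gave 13.9, 6.93 and 1.06 CPM (7.31 ± 6.44, SD, n = 3). The last of these values rests on 11 counts, with an exact Poisson interval of 0.530 to 1.90 CPM, and this library is the lowest in both strands. In order of the means the groups ran from hypoxic control through HIF1α-KO and HIF2α-KO to the double knockout and normoxic control, and every neighbouring pair overlapped.

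The levels of the strands were correlated between libraries. Over the 15 libraries, which share their depth between both strands of a library, the correlation of log2 CPM was 0.83 (Pearson) and 0.79 (Spearman), and 0.80 after the 2 libraries farthest from the median in 5p were left out. The correlation of the deviations from the group means was 0.95. The order of the libraries within a group was not always the same, since HIF1α/HIF2α-KO replicate 3 was the lowest of its group in 3p and the highest in 5p, and HIF2α-KO replicates 1 and 2 were in opposite order in the 2 strands. In 5p these orders lay within counting error. The exact Poisson intervals of HIF2α-KO replicates 1 and 2 were 3.34 to 5.65 and 4.20 to 6.99 CPM. Those of the HIF1α/HIF2α-KO replicates were 4.65 to 7.13, 3.91 to 6.54 and 5.06 to 8.06 CPM.

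The share of the 5p strand in the miR-335 counts needs no scaling between libraries. It was 8.05, 8.06 and 12.0% in HIF1α/HIF2α-KO cells (9.38 ± 2.29, SD, n = 3). Their exact binomial 95% intervals were 6.51 to 9.81, 6.24 to 10.2 and 9.57 to 14.8%. Hypoxic control cells gave 4.61, 6.16 and 5.38% (5.39 ± 0.772, SD, n = 3). Normoxic control cells gave 5.60, 5.56 and 4.38%, and HIF2α-KO cells gave 4.87, 6.11 and 6.20%. HIF1α-KO cells gave 6.69, 5.81 and 2.63%, where the interval of replicate 3 was 1.32 to 4.65%. Each of the 3 double knockout libraries lay above each of the other 12 libraries, although the intervals of replicates 1 and 2 overlapped those of other libraries, among them HIF1α-KO replicate 1. Expressed as counts of 3p per count of 5p, the double knockout libraries held 11.4, 11.4 and 7.32, and the other libraries 13.9 to 37.1. As the 3p strand chose the pair through the double knockout, this difference is a description. How many other hairpins separated the double knockout from the other 12 libraries was not counted, so nothing is read from the separation.

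**Figure D2:**
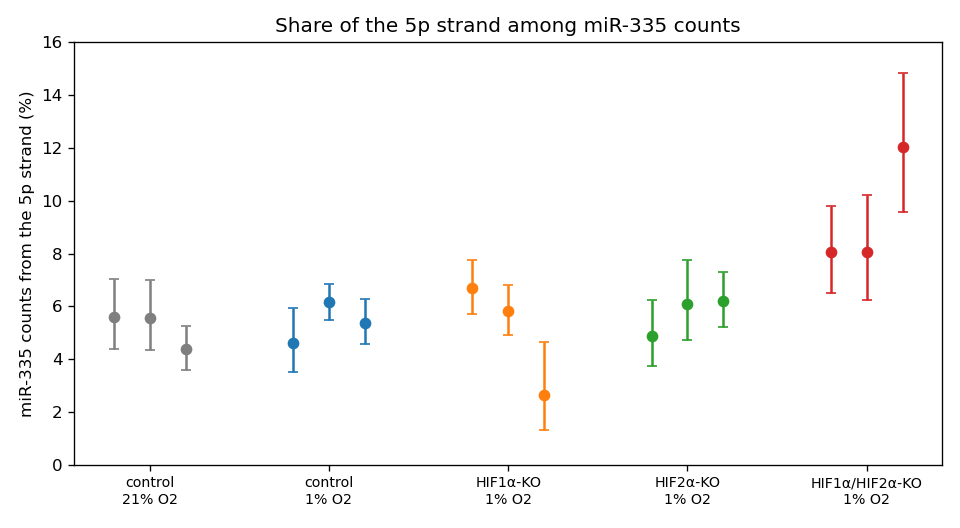
Percent of miR-335 counts that came from the 5p strand in each library, with exact binomial 95% intervals that cover counting error only. The 3 HIF1α/HIF2α-KO libraries sit at 8.05 to 12.0%, above the other 12 libraries at 2.63 to 6.69%. How many other hairpins separate in this way was not counted.

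On the scale of the fitted model, edgeR with TMM factors over all 15 libraries, miR-335-3p differed between HIF1α/HIF2α-KO and hypoxic control cells by a log2 fold change of -1.65 ± 0.48 (SE), and miR-335-5p by -0.86 ± 0.61. Of the 562 miRNAs tested in this comparison 33 were called at an adjusted p under 0.05 with edgeR, 5.87%, and neither strand of miR-335 was among them. Because the comparison chose the pair, nothing is read from that. The other comparisons that use these libraries are also descriptions, and they share them. Against hypoxic control cells, HIF1α-KO cells had a log2 fold change of -0.62 ± 0.47 (SE) in 3p and -0.50 ± 0.60 in 5p. HIF2α-KO cells had -0.42 ± 0.47 (SE) in 3p and -0.34 ± 0.61 in 5p against the same libraries. Hypoxic against normoxic control cells gave 0.61 ± 0.47 (SE) in 3p and 0.76 ± 0.61 in 5p. In both strands the hypoxic control cells had the higher level in each of these comparisons.

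HIF1α/HIF2α-KO cells were also set against the 3 remaining groups. The log2 fold change of miR-335-3p was -1.03 ± 0.47 (SE) against HIF1α-KO cells, -1.23 ± 0.47 against HIF2α-KO cells and -1.03 ± 0.47 against normoxic control cells. Those of miR-335-5p were -0.36 ± 0.61 (SE), -0.52 ± 0.62 and -0.10 ± 0.62 in the same order. Against every other group the gap of the double knockout was wider in the 3p than in the 5p strand.

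**Figure D3:**
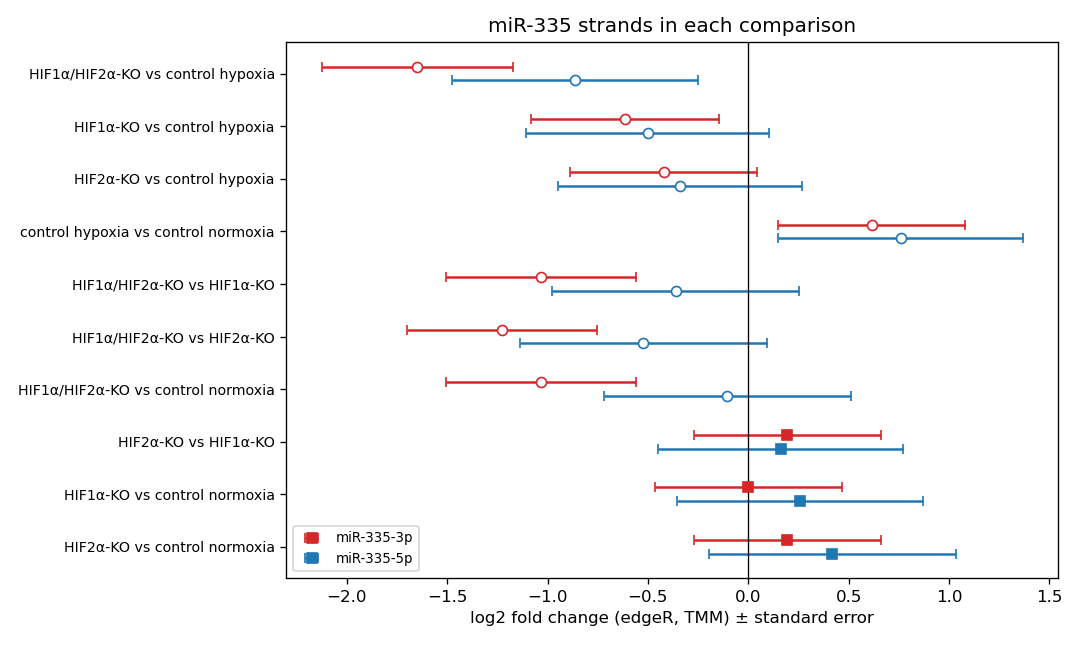
Fitted log2 fold changes of miR-335-3p and miR-335-5p in 10 comparisons, with bars of ± 1 standard error. Open circles are comparisons that use the hypoxic control or HIF1α/HIF2α-KO libraries and are descriptions, and filled squares are the 3 tested comparisons, all within 0.42 of 0. The 3p strand is farthest from 0, at -1.65, in HIF1α/HIF2α-KO against hypoxic control cells.

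The groups HIF1α-KO, HIF2α-KO and normoxic control had no part in the choice of the pair, and the comparisons among them were tested. No difference was detected in either strand. Between HIF2α-KO and HIF1α-KO cells the log2 fold change of miR-335-3p was 0.19 ± 0.47 (SE), with a 95% interval of -0.81 to 1.19 (adjusted p = 0.872, edgeR). That of miR-335-5p was 0.16 ± 0.61, with an interval of -1.15 to 1.47 (adjusted p = 0.931, edgeR). Here 6 miRNAs were called of 562, 1.07%. The interval of 3p admits a level in HIF2α-KO cells more than 2-fold higher, and that of 5p a level more than 2-fold higher or lower, so equality was not shown.

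In HIF1α-KO cells under hypoxia against normoxic control cells, miR-335-3p had a log2 fold change of -0.0005 ± 0.47 (SE), with an interval of -1.0 to 1.0 (adjusted p = 0.999, edgeR). miR-335-5p had 0.26 ± 0.61, with an interval of -1.06 to 1.57 (adjusted p = 0.849, edgeR), and 13 miRNAs were called, 2.31%. In HIF2α-KO cells against normoxic control cells, miR-335-3p had 0.19 ± 0.47, with an interval of -0.81 to 1.19 (adjusted p = 0.904, edgeR). miR-335-5p had 0.42 ± 0.61, with an interval of -0.90 to 1.74 (adjusted p = 0.785, edgeR). In that comparison edgeR called 0 of 562 miRNAs, a background of 0%, where 85 had an unadjusted p under 0.05, and DESeq2 and limma also called 0.

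The log2 ratio of 5p to 3p counts in a library averaged -4.34 in HIF1α-KO, -4.05 in HIF2α-KO and -4.20 in normoxic control cells. The 3 pairwise differences had two-sided exact permutation p-values of 0.8, 1 and 0.5 for HIF2α-KO against HIF1α-KO, HIF1α-KO against normoxic control and HIF2α-KO against normoxic control cells. With the CPM of both strands tested in the same way, each of the 9 tests had an adjusted p of 1 (exact permutation), and 3 libraries against 3 cannot give a p below 0.1.

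Single libraries decided the direction of several of these values. Without HIF1α-KO replicate 3, miR-335-3p in HIF1α-KO against normoxic control cells had a log2 fold change of 0.45 ± 0.38 (adjusted p = 0.486, edgeR) and miR-335-5p 0.79 ± 0.44 (adjusted p = 0.306, edgeR). In HIF2α-KO against HIF1α-KO cells the values became -0.27 ± 0.38 in 3p (adjusted p = 0.714, edgeR) and -0.40 ± 0.44 in 5p (adjusted p = 0.640, edgeR). The log2 ratio of 5p to 3p changed sign as well, to a difference of 0.29 between HIF1α-KO and normoxic control cells (exact permutation p = 0.2) and of -0.14 between HIF2α-KO and HIF1α-KO cells (exact permutation p = 0.6). Without HIF2α-KO replicate 3, HIF2α-KO cells had values of -0.35 in 3p and -0.48 in 5p against HIF1α-KO cells, and of -0.33 and -0.20 against normoxic control cells. In HIF1α-KO against normoxic control cells, 3p became 0.31 without normoxic control replicate 3 and 5p became -0.49 without HIF1α-KO replicate 1.

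The difference between the strands was set beside that of other hairpins. In the comparisons with the double knockout this is a description, since the low 3p level that chose the pair favours a wide gap between its strands there. The log2 ratio of 5p to 3p was taken here from TMM-scaled log2 CPM and not from the fitted fold changes, which give other gaps. The place of miR-335 among the hairpins on the fitted scale was not computed. In HIF1α/HIF2α-KO against hypoxic control cells the ratio of miR-335 differed by 0.86, and 8 of the 142 hairpins had a larger difference in either direction. The median difference in size over the hairpins was 0.35. Against HIF1α-KO cells the difference was 1.00, with 8 hairpins above it in size. It was 0.76 against HIF2α-KO and 0.91 against normoxic control cells, with 20 hairpins above it in each. For the groups outside the choice of the pair it was 0.25 for HIF2α-KO against HIF1α-KO cells, -0.10 for HIF1α-KO against normoxic control and 0.15 for HIF2α-KO against normoxic control cells. There 76, 103 and 109 hairpins had a larger difference in size. These comparisons share libraries with one another and are not independent, and the 2 sets of values were not compared.

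The level of miR-335 was also read within the miR-126 sets. Hypoxic control replicate 1 and HIF1α/HIF2α-KO replicates 1 and 2 were among the 9 libraries with more miR-126. Within this set miR-335-3p measured 113 CPM in the control library against 66.2 and 58.2 CPM in the double knockout, and miR-335-5p 5.46 CPM against 5.79 and 5.10 CPM. Within the set with less miR-126, miR-335-3p measured 205 and 197 CPM in control against 47.1 CPM in the double knockout, and miR-335-5p 13.5 and 11.2 CPM against 6.43 CPM. The 3p level of the double knockout was thus lower in both sets. Its 5p level was lower in the set with less miR-126, whereas in the other set the control library lay between the double knockout libraries. The other HIF1α-KO libraries belonged to the set with less miR-126, and replicate 3, low in miR-335, to the set with more. In HIF2α-KO cells replicate 3 belonged to the set with more miR-126 and was high in miR-335, at 178 CPM of 3p and 11.8 CPM of 5p. Replicate 1 belonged to the same set and measured 85.7 and 4.38 CPM. Replicate 2 belonged to the set with less and measured 84.0 and 5.46 CPM. Replicates 1 and 2 were thus close to each other although they belonged to different sets. Over the 15 libraries, which include libraries of all groups, the correlation with summed miR-126 was -0.51 (Pearson) and -0.54 (Spearman) for miR-335-5p, and -0.27 for miR-335-3p by both measures. For the deviations from the group means it was -0.59 (Pearson) for 5p and -0.43 for 3p. Of the 2 miR-126 strands 1 had counts in every library, and no listed marker that was in the files was at 0 throughout. Of 5 smooth muscle and stromal markers 4 were in the files, and of 6 epithelial markers 5. Other sums varied between libraries too, at 136 to 585 CPM for smooth muscle and stromal markers. Epithelial markers summed to 39.3 to 118 CPM and blood markers to 2.13 to 18.9 CPM. With the set as a covariate in the fit, the log2 fold change between HIF1α/HIF2α-KO and hypoxic control cells was -1.43 ± 0.49 (SE) in 3p and -0.47 ± 0.58 in 5p. Between HIF2α-KO and HIF1α-KO cells that of 5p was 0.73 ± 0.62 (adjusted p = 0.568, edgeR) and that of 3p 0.47 ± 0.51 (adjusted p = 0.689, edgeR). In HIF1α-KO against normoxic control cells the values were -0.51 ± 0.67 in 5p (adjusted p = 0.894, edgeR) and -0.37 ± 0.56 in 3p (adjusted p = 0.916, edgeR). There only HIF1α-KO replicate 3 shared a set with the normoxic control libraries, so set and group were largely tied. The covariate thus moved the 5p strand more than the 3p strand in these comparisons.

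The miRNA whose pattern was most like that of miR-335-5p among 560 others was miR-9-5p, a miRNA abundant in neural progenitors and brain tumours. Its log2 CPM had a Pearson correlation of 0.94 with that of miR-335-5p over the 15 libraries, and of 0.96 for the deviations from group means. Its range was 1964 to 8497 CPM. HIF1α-KO replicate 3 was the lowest library for both, and the 2 high hypoxic control libraries were high for both, at 7953 and 7894 CPM of miR-9-5p. The next lowest library for miR-9-5p, normoxic control replicate 2, measured 3876 CPM. The correlation was not computed without HIF1α-KO replicate 3, so its weight in the value is not known. In HIF1α/HIF2α-KO cells miR-9-5p measured 5518, 5582 and 6234 CPM, and its log2 fold change against hypoxic control was -0.32, against -0.86 for miR-335-5p. The next in order were miR-9-3p (0.90), miR-450a-5p (0.88), miR-190b-5p (0.88) and miR-450b-5p (0.85).

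**Figure D4:**
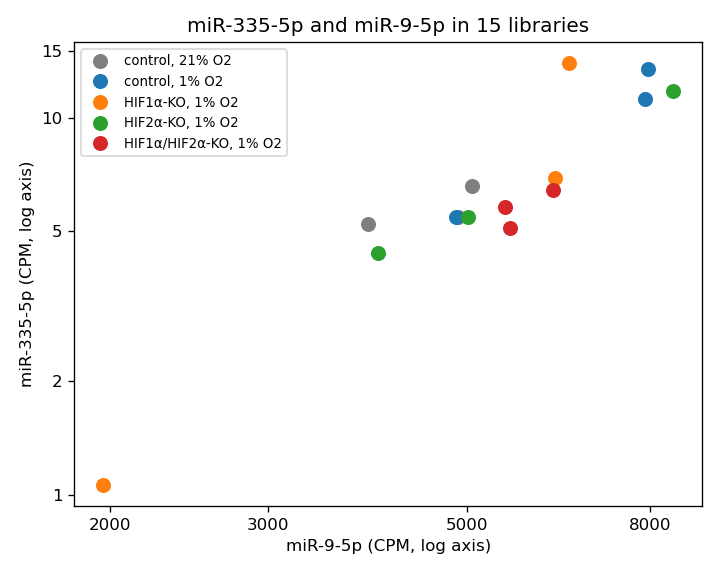
miR-335-5p against miR-9-5p in CPM, both on log axes, with 1 point for each of the 15 libraries coloured by group. The points rise together from HIF1α-KO replicate 3 at 1964 CPM of miR-9-5p to the highest at 8497 CPM, a HIF2α-KO library, with a Pearson correlation of 0.94 on the log2 scale.

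The pattern of miR-335-3p was less closely matched. Its highest correlation was 0.81, with miR-196a-5p, a miRNA of the HOX gene clusters, followed by let-7b-5p (0.80), let-7a-5p (0.79), let-7c-5p (0.78) and miR-190b-5p (0.73). The 15 libraries include the 2 groups whose difference in 3p chose the pair, so nothing is read from this order. The let-7 family restrains growth genes in differentiated cells, and its members differ by few bases, so that their counts may be split between them. miR-196a-5p ranged from 63.9 to 152 CPM. It measured 63.9, 105 and 71.8 CPM in HIF1α/HIF2α-KO cells against 142, 152 and 136 CPM in hypoxic control cells. For deviations from the group means its correlation with miR-335-3p was 0.67, whereas that of miR-190b-5p was 0.90. miR-190b-5p was the only miRNA among the first 5 of both strands. Its level was low, at 0.386 to 3.50 CPM with a mean of 1.53 CPM, and its lowest values were close to the floor of 3 counts.

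The other imprinted miRNAs were followed as lists. Outside the large clusters, 6 rows of miR-296, miR-483 and miR-675 were in the files and 3 were tested. Of these, miR-296-3p and miR-296-5p, from the GNAS locus, and miR-483-3p, from IGF2, were called neither in the 3 tested comparisons nor in HIF1α/HIF2α-KO against hypoxic control cells. Of all miRNAs at most 2.31% were called in the former and 5.87% in the latter, so nothing is read from 3 rows without a call. Their median log2 fold change in HIF1α/HIF2α-KO against hypoxic control cells was -0.43, beside -0.02 over all 562 miRNAs. miR-675, made from the H19 RNA, had at most 2 counts in a library. Of the imprinted cluster at 14q32, expressed from the maternal allele, 74 rows were in the files and 24 were tested. Of these, 0 were called higher and 11 lower in HIF1α/HIF2α-KO against hypoxic control cells (edgeR, adjusted p under 0.05), where 1.25% of all miRNAs were called higher and 4.63% lower, and their median log2 fold change was -1.56. In HIF1α-KO against normoxic control cells 2 were called higher and 0 lower, where 0.712% of all miRNAs were called higher and 9 of the 562 lower. The cluster at 19q13 had 30 rows, of which 0 passed the filter on low counts.

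The hairpins within 5 Mb of MIR335 on chromosome 7 gave 17 rows, of which 10 were tested. The nearest, MIR29A and MIR29B1, lie about 381 kb away on the other strand. miR-182-5p, of the sensory miR-183 cluster, rose in HIF1α/HIF2α-KO against hypoxic control cells by a log2 fold change of 0.64 (adjusted p = 0.0394, edgeR), and it was the only call among the 10, where 1.25% of all miRNAs were called higher. miR-183-5p and miR-96-5p, from the same cluster, had values of 0.45 (adjusted p = 0.345, edgeR) and 0.61 (adjusted p = 0.0742, edgeR). The median log2 fold change of the 10 there was 0.62, beside -0.02 over all miRNAs. Several of the 10 come from the same hairpin or cluster and are not separate values. Both strands of miR-335 had negative values there, but this comparison chose the pair, so nothing is read from the contrast in sign. miR-29b-3p, which is also made from a second locus, had a value of 0.94 (adjusted p = 0.0534, edgeR), and miR-29a-3p had 0.33 (adjusted p = 0.0672, edgeR). In the 3 tested comparisons among HIF1α-KO, HIF2α-KO and normoxic control cells 0 of the 10 were called. Of all miRNAs 1.07% were called for HIF2α-KO against HIF1α-KO cells. Against normoxic control cells the shares were 2.31% for HIF1α-KO and 0% for HIF2α-KO cells. With shares this low, nothing is read from 0 calls among 10.

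The starts of MEST were searched for the core of the HIF binding motif, ACGTG or GCGTG on either strand, in windows from 250 bases before to 50 bases after each start in RefSeq. Of 5 MEST windows 1 held a match, at chr7:130491079-130491378, and 48.4% of all 35116 windows held at least 1. A match is a description of the letters and not a measured binding site, and the level of the MEST transcript was not measured in these libraries.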

How the data were processed

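The 15 files deposited by the authors hold counts of each mature miRNA, in whole numbers that were not normalized. The submitters' processing notes name HISAT2, StringTie and DESeq2, without a role or a version, and the genome build is not given in the sources used here. The supplementary methods name quantile normalization with limma, which the deposited counts do not include. Samples were grouped by genotype, treatment and replicate number in the labels, and 0 per-sample columns were left unused.

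Counts were fitted with edgeR 4.0.16 in R 4.3.3, scaled by TMM. The filter filterByExpr left 562 miRNAs, the model held 1 mean per group over 15 libraries, and p-values of the quasi-likelihood test were adjusted by Benjamini-Hochberg over these miRNAs and called at 0.05. CPM values are counts divided by the library total. The smallest chi-square per degree of freedom between replicates was 49.3, so no library was counted as a copy. The fit was tested on simulated data, with 200 miRNAs changed. Alternatives used limma 3.58.1, DESeq2 1.42.0, other scalings and filters, and each replicate left out in turn. Correlations, and the strand ratios set beside other hairpins, used TMM-scaled log2 CPM with a prior count of 2. Only the level of miR-126 in its correlations with miR-335 was the log2 of the summed CPM, without TMM or a prior count. Hairpins were folded with RNAfold 2.7.2 and annotated with GENCODE release 29, and permutation tests used scipy 1.17.1.

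The miRNAs named are both strands of miR-335, the 5 miRNAs most correlated with each strand, those sharing a seed, those within 5 Mb, and imprinted miRNAs outside the large clusters. Members and lists were chosen with earlier results of these data known.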

Additional observations from a re-analysis of the deposited data

How the results depend on the processing

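In the 3 tested comparisons no alternative gave either strand of miR-335 an adjusted p under 0.05, and the lowest was 0.306. Between HIF1α/HIF2α-KO and hypoxic control cells the log2 fold change kept its sign under all 10 alternatives other than leaving out a replicate, with values of -1.68 to -1.43 for miR-335-3p and -0.89 to -0.47 for miR-335-5p. Directions turned elsewhere. The value of miR-335-3p in HIF1α-KO against normoxic control cells, -0.0005, became 0.092 with total counts, 0.053 without a filter, 0.0093 without miR-21-5p, 0.016 with at least 10 counts in every library and 0.051 with only the libraries compared, while the widest move without a turn was to -0.37 with the miR-126 set as a covariate, followed by -0.18 with limma. That of miR-335-5p became -0.13 with limma and -0.51 with the miR-126 covariate. Between HIF2α-KO and HIF1α-KO cells miR-335-5p became -0.026 with total counts, a scaling that moved the median of all miRNAs to -0.13. The cause was not tested.

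The same-numbered libraries deviated together with correlations of -0.45 to 0.41 and not every pair was above 0.1, so the numbers were not taken as pairing. With the replicate number as a block miR-335-3p had 0.031 in HIF1α-KO against normoxic control cells, and 3 miRNAs instead of 6 were called between HIF2α-KO and HIF1α-KO cells; no call on miR-335 changed in the tested comparisons.

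With 1 replicate removed at a time, the fitted difference between HIF2α-KO and HIF1α-KO cells ran from -0.35 to 0.73 in 3p and from -0.48 to 0.92 in 5p, between HIF1α-KO and normoxic control cells from -0.53 to 0.45 and from -0.49 to 0.79, and between HIF2α-KO and normoxic control cells from -0.33 to 0.47 and from -0.20 to 0.67. Between HIF1α/HIF2α-KO and hypoxic control cells it ran from -1.86 to -1.49 and from -1.14 to -0.59. The log2 ratio of 5p to 3p ran from -0.14 to 0.57, from -0.41 to 0.29, from 0.03 to 0.27 and from 0.63 to 0.95 in the same order of comparisons.

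The number of miRNAs called between HIF2α-KO and HIF1α-KO cells, 6, became 12 with total counts, 20 with DESeq2, 14 without a filter, 14 with at least 10 counts, 0 with only the libraries compared (edgeR, 64 at an unadjusted p under 0.05) and 2 to 18 without 1 replicate, with the ends set by HIF1α-KO replicates 2 and 3 and with 3 without HIF2α-KO replicate 2. Between HIF1α-KO and normoxic control cells 13 became 7 with total counts, 20 with DESeq2, 26 without a filter, 3 with the miR-126 set and 3 to 9 without 1 replicate, under 9 for each library but HIF1α-KO replicate 3. Between HIF2α-KO and normoxic control cells 0 became 13 without a filter and 0 to 18 without 1 replicate, the 18 without HIF2α-KO replicate 1. Between HIF1α/HIF2α-KO and hypoxic control cells 33, of which 7 were higher and 26 lower, became 50 with total counts (25 higher, 25 lower), 60 with DESeq2 (23 higher, 37 lower), 61 with the miR-126 set (29 higher, 32 lower) and 15 to 32 without 1 replicate, at most 18 without hypoxic control replicate 1 or 2 or double knockout replicate 1 or 3. miR-335-5p rests on 11 counts in its lowest library.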
